A study of Bos taurus with 12 samples.

Results

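PDE4DIP encodes myomegalin, a large coiled-coil protein of the Golgi apparatus and the centrosome. On the bovine array it was read by 5 probe sets, which are all those that carry PDE4DIP as their only gene symbol among 24128 probe sets. Each of the 5 passed the filter on dim signals and is described here. The numbers in their names group 3 of them, which share 21191, apart from the other two. The gene was chosen by its measured breed differences in intramuscular fat, where Bt.21191.3.S1_at differed one way and Bt.11530.1.A1_at the other. Differences between the breeds in intramuscular fat are therefore given as a description, with no test.

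The symbol PDE4DIP records an interaction of the protein with phosphodiesterase 4D, an enzyme that breaks down the second messenger cAMP. In human cells it belongs, with its paralogue CDK5RAP2, to the proteins that recruit gamma-tubulin complexes and so help microtubules to grow from the centrosome and the Golgi apparatus. The gene gives rise to long and short isoforms, and it is known for high expression in heart and skeletal muscle. A short human isoform acts in heart muscle as an anchor of protein kinase A. RefSeq lists 39 transcript models of bovine PDE4DIP. Neither the position of each probe set in these models nor the strand it reads was analysed here.

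The 12 samples came from steers on an energy-rich diet, which all groups shared. Intramuscular fat (IMF) of Japanese Black (JB), intramuscular fat of Holstein (HS), subcutaneous fat (SCF) of JB and SCF of HS gave 3 samples each. JB cattle are raised for beef with much fat within the muscle, and Holstein cattle mainly for milk. The labels give no age, and do not say whether the samples of a group, or of both depots, came from separate animals, so the spread between samples may be partly technical.

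In both breeds the IMF samples carry the numbers 1 to 3 and the SCF samples 4 to 6. HS IMF 3 had an array median of 58.8 and the other arrays had medians of 77.6 to 88.3, and the number of arrays limits the precision. The mean correlation of a sample with its own group was 0.862 to 0.898 in HS IMF, 0.963 to 0.974 in JB IMF and 0.919 to 0.975 in SCF. Fat markers were present in both depots: ADIPOQ, the adipokine adiponectin, lay between 214 and 2303 in IMF, against 936 and 3485 in SCF. The 21 tested skeletal muscle fibre markers had a mean log2 signal of 11.7 to 12.8 in the 6 IMF samples, against 5.45 to 7.90 in the 6 SCF samples.

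Signals are linear intensities as deposited. Every difference is one of log2(signal + 16) after quantile normalization, a scale that understates the change of dim probe sets, and levels are compared within a probe set, not between probe sets. A probe set was called where the Benjamini-Hochberg adjusted p of limma over 16811 tested probe sets lay below 0.05.

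**Figure D1:**
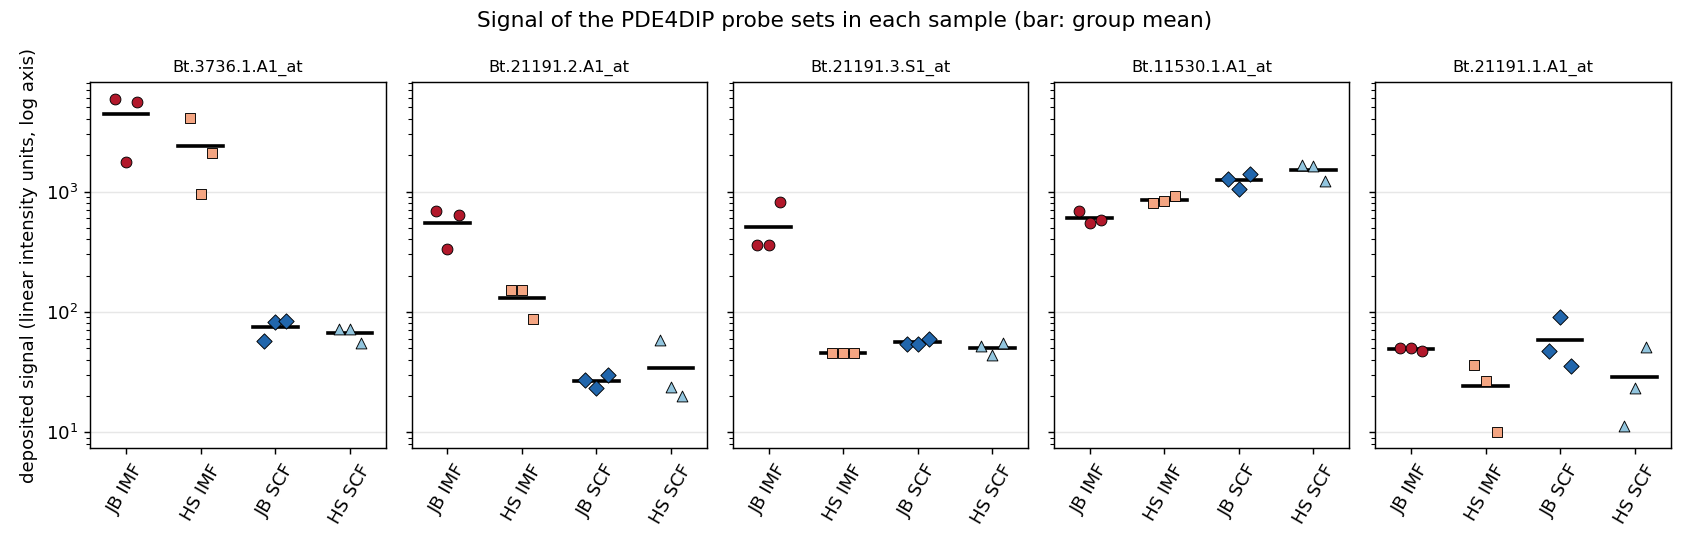
Deposited signal (vertical log axis, linear intensity units) of each PDE4DIP probe set in JB IMF, HS IMF, JB SCF and HS SCF. Each point is 1 sample and each bar the mean of 3 samples. Bt.3736.1.A1_at and Bt.21191.2.A1_at are higher in all 6 IMF samples, Bt.11530.1.A1_at is lower in them, and Bt.21191.3.S1_at stands at 356 or more in the 3 JB IMF samples alone.

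Between the depots, the called probe sets of PDE4DIP did not all change in the same direction. The downward call, of Bt.11530.1.A1_at, was kept in 15 of 21 alternatives. Over both breeds, Bt.3736.1.A1_at, Bt.21191.2.A1_at and Bt.21191.3.S1_at were higher in IMF, Bt.11530.1.A1_at was lower in IMF, and Bt.21191.1.A1_at was not called. Of the 5 probe sets 4 were thus called, where 11.0% of all tested probe sets were. The call of Bt.21191.3.S1_at came from JB, with a depot difference of 2.71 against 0.020 in HS. This call and that of Bt.11530.1.A1_at hold the IMF samples for which the gene was chosen. The 3 calls higher in IMF stand against 4.66% of all tested probe sets, and the 1 call lower in IMF against 6.33%. The deposited signals of the 6 IMF and the 6 SCF samples did not overlap for 3 of the 5 probe sets, against 5.97% of all. After normalization Bt.11530.1.A1_at, one of these 3, did overlap, since HS IMF 3 stood at 10.5 and JB SCF 4 to 6 at 9.91 to 10.4.

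Bt.3736.1.A1_at had signals of 5880, 1769 and 5578 in JB IMF and 4095, 948 and 2105 in HS IMF, against 56.9, 81.9 and 84.6 in JB SCF and 71.5, 72.4 and 55.3 in HS SCF. Every IMF sample was thus more than 10 times as high as the highest SCF sample, and JB IMF 2 and HS IMF 2 were the lowest of their groups. The depot difference over both breeds was 5.15 ± 0.37 (SE) on the log2 scale, 35.6-fold (limma, Benjamini-Hochberg adjusted p = 3.63e-06). Of all 16811 tested probe sets, 55 had a larger difference in this direction. Within JB it was 5.42 ± 0.52 (adjusted p = 9.96e-05), and within HS it was 4.89 ± 0.52 (adjusted p = 0.000258, limma with Benjamini-Hochberg adjustment). Among all tested probe sets 3.07% were called between the depots in JB and 3.32% in HS. The 2 IMF groups overlapped in this probe set, and so did the 2 SCF groups.

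Bt.21191.2.A1_at had signals of 690, 332 and 633 in JB IMF and 151, 151 and 87.3 in HS IMF, against 26.9, 23.2 and 29.7 in JB SCF and 58.8, 23.8 and 19.9 in HS SCF. Its levels fell in the order JB IMF, HS IMF and then the SCF groups, which overlapped each other. The depot difference over both breeds was 2.71 ± 0.23 (SE) on the log2 scale, 6.55-fold (limma, Benjamini-Hochberg adjusted p = 1.42e-05). It was 3.59 ± 0.32 in JB (adjusted p = 5.73e-05) and 1.83 ± 0.32 in HS (adjusted p = 0.00967, limma with Benjamini-Hochberg adjustment). The call in HS was lost with only the HS groups in the fit (adjusted p = 0.0885), without HS SCF 6 (0.0579), and when JB SCF 6 and HS SCF 5 were both left out (0.0775). It was kept in 19 of 22 alternatives, over which the limma adjusted p lay between 0.00287 and 0.0885.

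Bt.21191.3.S1_at had signals of 361, 356 and 817 in JB IMF and 45.1, 45.4 and 45.3 in HS IMF, against 54.4, 54.1 and 59.6 in JB SCF and 51.8, 43.9 and 55.1 in HS SCF. The JB IMF samples stood above 77.1% to 88.3% of the probe sets on their arrays. In the other 9 samples the signal lay above 36.1% to 43.0% of them, below the median of every array. The depot difference over both breeds was 1.37 ± 0.20 (SE) on the log2 scale (limma, Benjamini-Hochberg adjusted p = 0.00130), and the IMF and SCF samples overlapped. It was made of a difference of 2.71 ± 0.29 in JB and of 0.020 in HS, with an SE of 0.29. The HS difference was negative in the values as deposited (−0.11), and lay between −0.077 and 0.070 when single samples were left out. These within-breed values hold the samples for which the probe set was chosen, and no test is given for them. The test over both breeds holds the same IMF samples, and its difference came from JB IMF.

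Bt.11530.1.A1_at ran the other way. It had signals of 686, 544 and 584 in JB IMF and 805, 832 and 922 in HS IMF, against 1277, 1043 and 1410 in JB SCF and 1671, 1637 and 1217 in HS SCF. Its levels rose in the order JB IMF, HS IMF, JB SCF and HS SCF. In deposited signals, neighbours in this order were apart except the 2 SCF groups, which overlapped. After normalization HS IMF and JB SCF overlapped too, with HS IMF 3 at 10.5 and the JB SCF samples at 9.91 to 10.4. The depot difference over both breeds was −0.76 ± 0.19 (SE) on the log2 scale, with SCF 1.70-fold above IMF (limma, Benjamini-Hochberg adjusted p = 0.0274). Within JB it was −0.99 ± 0.28 and within HS −0.54 ± 0.28, with a 95% confidence interval in HS from −1.14 to 0.063. No test is given within the breeds, and the test over both breeds holds the IMF samples for which this probe set was chosen.

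The call of Bt.11530.1.A1_at between the depots lay near the threshold. It was lost without JB IMF 1 (limma, Benjamini-Hochberg adjusted p = 0.0534), JB IMF 3 (0.0770), JB SCF 4 (0.0572), JB SCF 6 (0.0749) or HS SCF 5 (0.0617), and when JB SCF 6 and HS SCF 5 were both left out (0.145). It was kept in 15 of 21 alternatives, over which the adjusted p lay between 0.00554 and 0.145. The difference was negative in each of the 21, between −0.91 and −0.68. It was −0.81 ± 0.22 (SE) without JB IMF 1 and −0.76 ± 0.22 without JB SCF 4. The calls of Bt.3736.1.A1_at, Bt.21191.2.A1_at and Bt.21191.3.S1_at over both breeds were kept in all 21 alternatives run.

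Bt.21191.1.A1_at was the dimmest of the 5 in relation to its arrays, with a mean above that of 31.2% of all probe sets, just above the 30% left out as dim. Its signals were 50.4, 50.1 and 47.4 in JB IMF and 36.4, 26.4 and 10.1 in HS IMF, against 47.5, 91.3 and 35.3 in JB SCF and 11.3, 23.4 and 51.2 in HS SCF. IMF and SCF overlapped in both breeds. The depot difference over both breeds was −0.070 with an SE of 0.26 and a 95% confidence interval from −0.63 to 0.49 (limma, Benjamini-Hochberg adjusted p = 0.891). Its sign turned without HS IMF 3 (0.064) or HS SCF 6 (0.096).

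**Figure D2:**
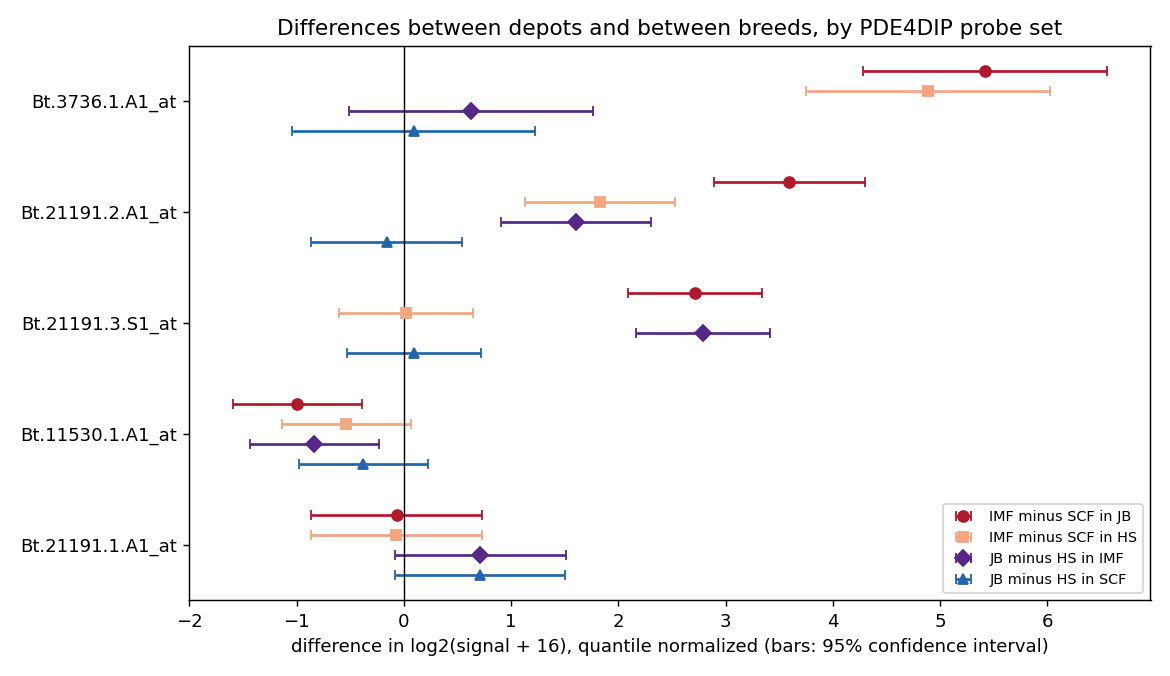
Difference in log2(signal + 16) after quantile normalization (horizontal axis) for each PDE4DIP probe set (rows), with IMF minus SCF in JB and in HS and JB minus HS in IMF and in SCF. Points are estimates of limma and bars their 95% confidence intervals, which describe, and do not test, the breed differences in IMF. The depot differences run from 5.42 for Bt.3736.1.A1_at in JB to −0.99 for Bt.11530.1.A1_at in JB, and every interval of the breed differences in SCF includes 0.

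Whether the probe sets differed unequally between the depots was tested directly. For each pair of probe sets, the log2 difference between them was taken within each sample and compared between 6 IMF and 6 SCF samples by a 2-sided exact permutation test, adjusted over the 10 pairs. In 9 of the 10 pairs the adjusted p lay below 0.05. Every pair uses the IMF samples in which the gene was chosen. For Bt.11530.1.A1_at minus Bt.3736.1.A1_at the within-sample difference shifted by −5.92 log2 units (exact permutation p = 0.00216, the smallest that 6 against 6 samples can give, adjusted p = 0.00361). For Bt.11530.1.A1_at minus Bt.21191.2.A1_at it shifted by −3.48, with the same exact p-values. For Bt.21191.2.A1_at minus Bt.3736.1.A1_at it shifted by −2.44, again with the same exact p-values. In SCF both of these stood below the median of every array, above 20.4% to 43.0% and 40.8% to 49.5% of its probe sets. The part of these dim signals and of the added 16 in the size of the shift was not tested.

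Some shifts that involve Bt.21191.3.S1_at were no longer called when single samples were left out. Against Bt.11530.1.A1_at the shift was −2.13 (exact permutation p = 0.0260, adjusted p = 0.0325). The gene was chosen for the breed differences of these 2 probe sets in IMF, and the test holds the same IMF samples. Bt.11530.1.A1_at minus Bt.21191.3.S1_at averaged 0.33 in JB IMF and 4.04 in JB SCF, against 3.96 in HS IMF and 4.51 in HS SCF. The shift was not called without JB SCF 4, JB SCF 5, JB SCF 6, HS SCF 4, HS SCF 5 or HS SCF 6. Adjusted exact permutation p-values were 0.0649 to 0.0914 in those 6 fits. Against Bt.21191.1.A1_at it was −1.44 (exact permutation p = 0.0325, adjusted p = 0.0361), with adjusted p-values of 0.0189 to 0.0746 over 14 alternatives. It was not called in 10 of these, which were the values as deposited (adjusted exact p = 0.0529) and the fits without JB IMF 1, 2 or 3, JB SCF 4, 5 or 6, HS IMF 3, or HS SCF 5 or 6. Bt.21191.1.A1_at minus Bt.21191.3.S1_at averaged −2.82 in JB IMF and −0.039 in JB SCF, against −0.74 in HS IMF and −0.65 in HS SCF. This pair, too, holds the IMF samples for which Bt.21191.3.S1_at was chosen. The pair that was not called, Bt.11530.1.A1_at minus Bt.21191.1.A1_at, shifted by −0.70 (exact permutation p = 0.245).

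Opposite calls within a gene were uncommon on this array. Among 1872 named genes with at least 2 tested probe sets, 105 had 2 or more called between the depots, and for 7 of these, or 6.67%, the calls went both ways. PDE4DIP was one of the 7, through the call of Bt.11530.1.A1_at alone, which was lost in 6 of 21 alternatives, and the others were C1QTNF1, CACNB1, CST3, DUSP12, EED and LRCH4, named here after their values were seen. The depot differences of the PDE4DIP probe sets spanned 5.92 log2 units, and 3 of the 1872 genes spanned more. A span can grow with the number of probe sets, and PDE4DIP is among the 26 genes with at least 5, of which 0 spanned more. PDE4DIP was chosen for opposite breed differences in the IMF samples, which also enter these calls and spans. Its place among the genes is therefore a description only. Assignment of probe sets to genes follows the platform annotation and was not checked against sequence here.

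Muscle markers moved with the depot. Of the 21 tested skeletal muscle fibre markers 19 were called higher in IMF and 0 lower (limma, Benjamini-Hochberg adjusted p), with a median depot difference of 6.68, where the median of all 7808 genes was −0.12. Per gene, read by its brightest probe set, 4.79% of all genes were called higher in IMF and 7.91% lower. The list's summed signal lay between 81391 and 188906 in IMF samples, against 4491 and 28881 in SCF samples. Of the 8 tested smooth muscle and pericyte markers 6 were called higher in IMF and 0 lower, with a median of 2.72. Bulk fat samples cannot tell a different share of a cell type from a different amount of RNA per cell.

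Within IMF, the skeletal muscle fibre mean was 12.8, 12.2 and 12.8 in JB IMF 1 to 3 and 12.8, 11.7 and 12.8 in HS IMF 1 to 3. The 2 samples with the lowest means, JB IMF 2 and HS IMF 2, were also the lowest in Bt.3736.1.A1_at. Within SCF, JB SCF 6 and HS SCF 5 had fibre means of 7.89 and 7.90, where the other 4 SCF samples had 5.45 to 5.73. Bt.3736.1.A1_at was at 84.6 and 72.4 in these samples, against 55.3 to 81.9 in the other 4. Each was the highest of its breed in SCF by deposited signal. After normalization HS SCF 4 stood above HS SCF 5, at 6.46 against 6.42. The part of muscle content in the depot differences of PDE4DIP was not tested.

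Markers of other cell types were counted in the same comparison. The 10 tested adipocyte markers all had negative depot differences, with a median of −0.89, and 0 were called by limma with Benjamini-Hochberg adjustment. All 6 tested macrophage and myeloid markers were called lower in IMF, with a median of −2.32. Of 6 stromal progenitor markers 1 was called lower, and 0 of 6 endothelial and 0 of 5 erythroid markers were called, with medians of −0.60, −0.047 and 0.23. Among all 16811 probe sets 4570 had an unadjusted p under 0.05 between the depots. The control probe sets at the ends of GAPDH, whose 3' over 5' ratio is a sign of RNA quality, gave ratios of 1.19 to 2.40 in IMF, against 1.87 to 4.06 in SCF. For cyclophilin the same ratio was 1.89 to 3.35 in IMF, against 1.88 to 2.85 in SCF. The part of RNA quality in the differences was not tested.

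**Figure D3:**
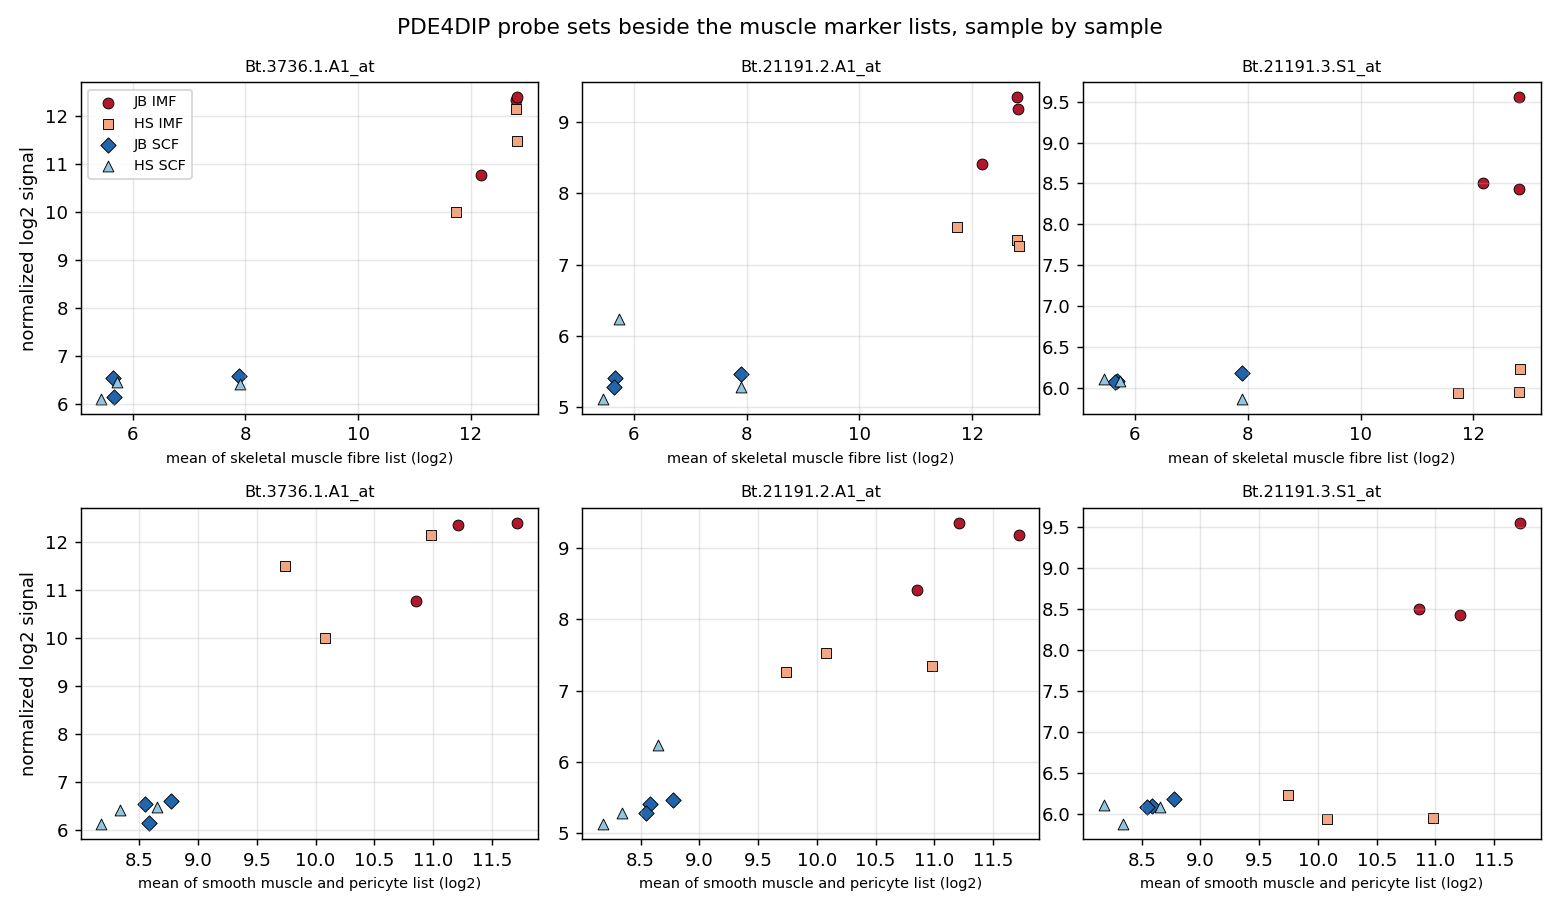
Normalized log2 signal of Bt.3736.1.A1_at, Bt.21191.2.A1_at and Bt.21191.3.S1_at (vertical axes) against the mean log2 signal of the skeletal muscle fibre list (upper row, 21 genes) and the smooth muscle and pericyte list (lower row, 8 genes). Each point is 1 of 12 samples. All IMF samples lie to the right of all SCF samples, and in Bt.21191.3.S1_at the 3 HS IMF samples stay at the level of SCF.

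The breeds were compared within IMF, the contrast for which the gene was chosen. Bt.21191.3.S1_at averaged 512 ± 265 in JB IMF and 45.2 ± 0.15 in HS IMF (SD, n = 3 each), a difference of 2.79 on the log2 scale, which 4 of 16811 tested probe sets exceeded. Bt.21191.2.A1_at averaged 552 ± 192 in JB IMF and 130 ± 36.8 in HS IMF (SD, n = 3 each), a difference of 1.60. Bt.21191.1.A1_at averaged 49.3 ± 1.67 in JB IMF and 24.3 ± 13.3 in HS IMF (SD, n = 3 each), a difference of 0.71.

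The other probe sets gave a different picture of the same samples. Bt.3736.1.A1_at averaged 4409 ± 2291 in JB IMF and 2382 ± 1592 in HS IMF (SD, n = 3 each), a difference of 0.62 that was within the spread of the samples. With single samples left out it lay between 0.024, without HS IMF 2, and 1.16, without JB IMF 2. Bt.11530.1.A1_at averaged 605 ± 73.0 in JB IMF and 853 ± 61.1 in HS IMF (SD, n = 3 each), a difference of −0.84, opposite to the other 4. It was −0.49 in the values as deposited, where the arrays are not aligned. With single samples left out it lay between −1.01, without HS IMF 1, and −0.58, without HS IMF 3. The JB and HS samples did not overlap in the deposited signals of 4 of the 5 probe sets, all but Bt.3736.1.A1_at, while 16.8% of all tested probe sets showed such a gap. The gene was chosen for its breed differences in these samples, so this count is a description only. The median breed difference over all tested probe sets in IMF was 0.10.

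Muscle markers of the same IMF samples are given beside these values. All 8 smooth muscle and pericyte markers had positive breed differences in IMF. Their median was 0.82, where that of all genes was 0.11. The list mean was 10.9 to 11.7 in JB IMF and 9.74 to 11.0 in HS IMF, so the groups overlapped. The skeletal muscle fibre list had a median breed difference of 0.14 in IMF. The part of either list in the breed differences was not tested.

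In SCF no probe set of PDE4DIP was called between the breeds. Of all tested probe sets 0.00595% were, a single one, while 599 had an unadjusted p under 0.05. The largest difference was that of Bt.21191.1.A1_at, 0.71 ± 0.36 (SE), with a 95% confidence interval from −0.083 to 1.50 (limma, Benjamini-Hochberg adjusted p = 1.00). It was 0.43 without HS SCF 4 and 1.04 without HS SCF 6. Without JB SCF 5, its highest sample, the probe set fell below the filter and was not fitted. Its signals averaged 58.0 ± 29.5 in JB SCF and 28.6 ± 20.4 in HS SCF (SD, n = 3 each).

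Bt.21191.3.S1_at averaged 56.0 ± 3.11 in JB SCF and 50.3 ± 5.76 in HS SCF (SD, n = 3 each), and its difference was 0.095 with an interval from −0.53 to 0.72. Bt.11530.1.A1_at averaged 1243 ± 186 in JB SCF and 1508 ± 253 in HS SCF (SD, n = 3 each), a difference of −0.38 with an interval from −0.98 to 0.22. Bt.21191.2.A1_at differed by −0.16 (interval −0.86 to 0.54) and Bt.3736.1.A1_at by 0.091 (interval −1.04 to 1.23). The JB and HS samples overlapped in each of the 5 probe sets, while they were apart in 12.2% of all tested probe sets. Set against SCF, the breed difference in IMF was larger by 2.69 ± 0.41 (SE) for Bt.21191.3.S1_at and 1.77 ± 0.46 for Bt.21191.2.A1_at. These values contain the contrast that picked the gene, and no test is given.

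Bt.11530.1.A1_at and Bt.21191.1.A1_at ran in opposite order among the SCF samples of each breed and among the HS IMF samples. Within JB IMF their normalized signals ran the same way, and the r over IMF includes the breed gap by which the gene was chosen. In SCF the sample with the lowest Bt.11530.1.A1_at signal, JB SCF 5 at 1043, had the highest Bt.21191.1.A1_at signal, 91.3, and the sample with the highest, HS SCF 4 at 1671, had the lowest, 11.3. Pearson's r of their normalized log2 signals was −0.98 over the 6 SCF samples (Spearman's rho −0.94) and −0.97 over the 6 IMF samples (rho −0.77). Without the 2 samples farthest from the median of Bt.11530.1.A1_at, r was −0.99 in SCF and −0.91 in IMF. In the values as deposited it was −0.97 and −0.84. The pair was noticed in these data, its samples share arrays and breeds, and no p is given.

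**Figure D4:**
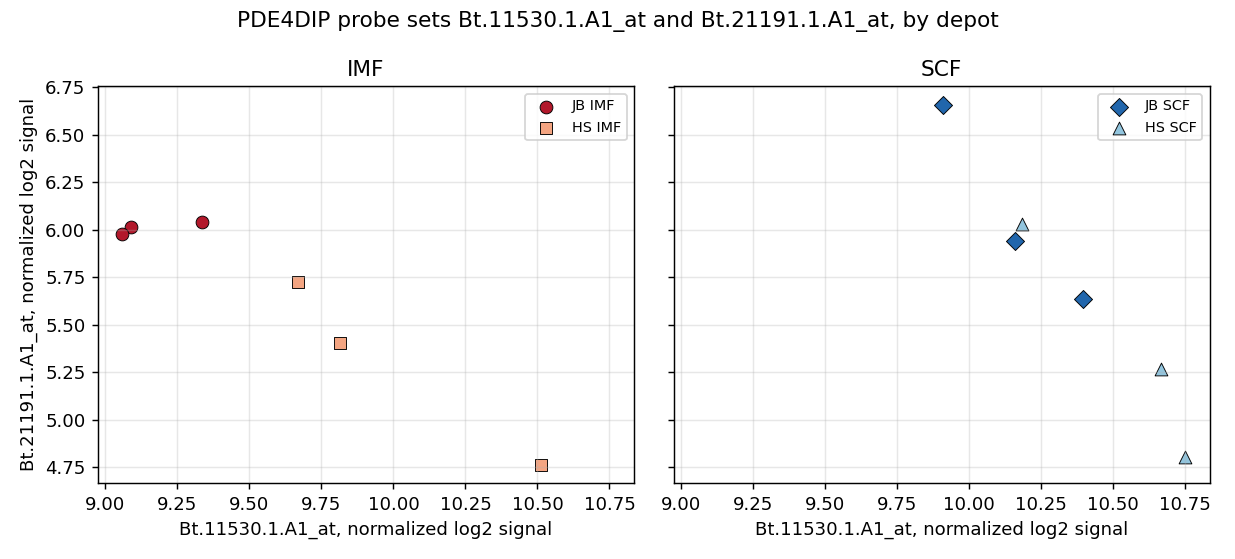
Normalized log2 signal of Bt.21191.1.A1_at (vertical axis) against that of Bt.11530.1.A1_at (horizontal axis) in the 6 IMF samples (left) and the 6 SCF samples (right). Each point is 1 sample. The points run downward over the samples of both depots, but not among the 3 JB IMF samples, with r of −0.97 in IMF and −0.98 in SCF.

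Genes whose pattern over the 12 samples was most like each probe set differed from one probe set to the next. For Bt.3736.1.A1_at they were PTGES3L, ANKRD1, the muscle ankyrin repeat protein, ASB15, an ankyrin repeat and SOCS box protein, STYXL2 and CAND2, with Pearson's r of 0.993 to 0.996. ANKRD1 had a depot difference of 6.15 ± 0.44 (SE) and STYXL2 one of 4.88 ± 0.34. For Bt.21191.2.A1_at they were DTNA, a dystrobrevin of the dystrophin complex, MYH11, the smooth muscle myosin heavy chain, DKK3, a secreted protein of the dickkopf family, SORBS2, an adaptor of actin and Z-discs, and MYPN, the sarcomere protein myopalladin, with r of 0.952 to 0.967. MYH11, which is also on the smooth muscle and pericyte list, had a depot difference of 3.73 ± 0.40 and mean signals of 12319 in JB IMF and 5032 in HS IMF, against 626 in JB SCF and 729 in HS SCF.

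For Bt.21191.3.S1_at they were AMIGO2, a cell adhesion protein, BTC, the growth factor betacellulin, NKIRAS1, an inhibitor of NF-kappaB signalling, LGR4, a receptor of R-spondins, and ETS2, a transcription factor, with r of 0.869 to 0.918. Spearman's rho for these 5 was 0.476 to 0.699. AMIGO2 had mean signals of 602 in JB IMF and 114 in HS IMF, against 63.6 in JB SCF and 71.9 in HS SCF. No gene was among the nearest 5 of more than 1 PDE4DIP probe set.

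For Bt.11530.1.A1_at they were DLX5, a homeobox factor, TRPV4, a cation channel, PERM1, a regulator of muscle metabolism, MAPK1IP1L and MFSD5, with r of 0.871 to 0.898. DLX5 had mean signals of 9.59 in JB IMF and 45.5 in HS IMF, against 46.3 in JB SCF and 65.9 in HS SCF. For Bt.21191.1.A1_at they were STAM, an adaptor of endosomal sorting, QNG1, of queuosine salvage, ANXA8L1, an annexin, TXNL4A, a spliceosome protein, and CSGALNACT2, an enzyme of chondroitin sulfate synthesis, with r of 0.883 to 0.896. CSGALNACT2 had mean signals of 164 in JB IMF and 59.9 in HS IMF, and of 148 in JB SCF and 62.2 in HS SCF. These genes are the nearest of all named genes over 12 samples that share 2 breeds and 2 depots, so r is a description and no p is given.

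**Figure D5:**
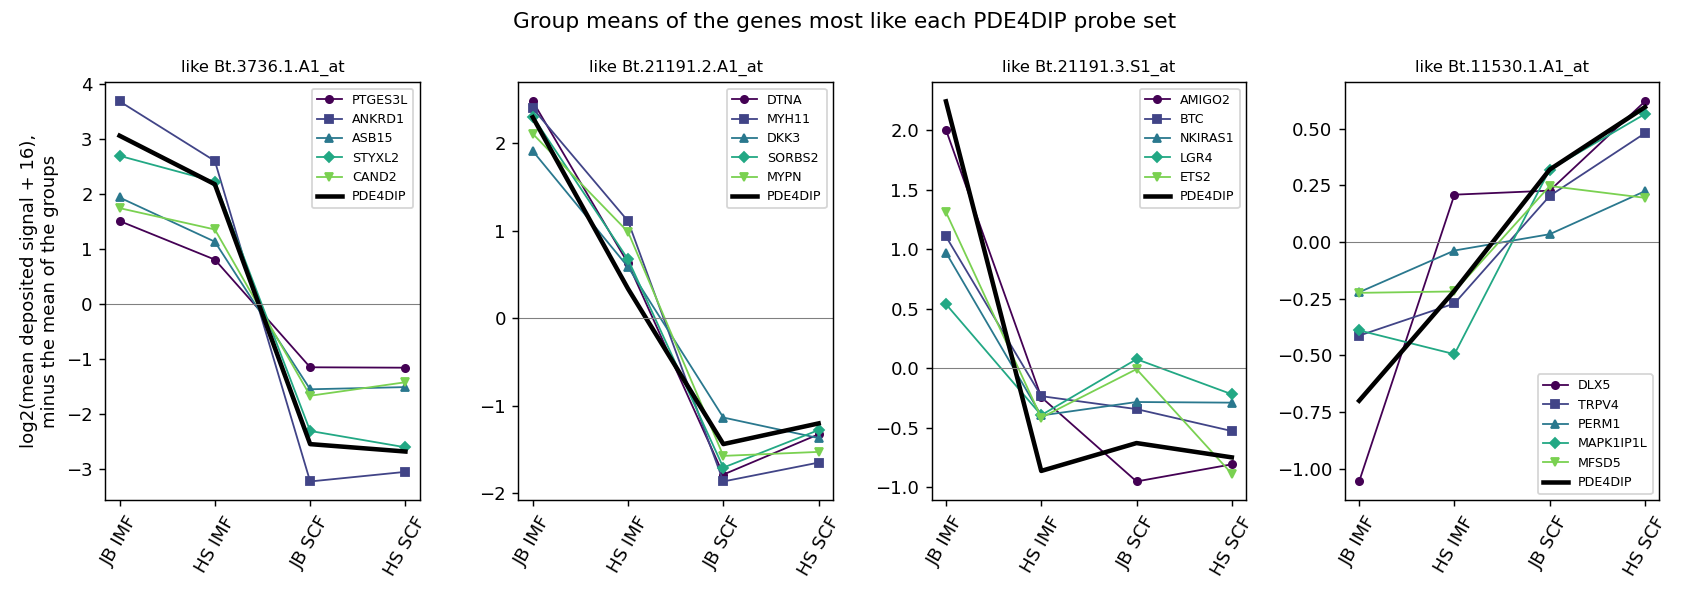
Group means of the 5 genes most like 4 of the PDE4DIP probe sets (thin lines) and of the probe set itself (thick line), as log2 of the mean deposited signal plus 16, minus the mean over the groups. The groups are JB IMF, HS IMF, JB SCF and HS SCF from left to right. The genes like Bt.3736.1.A1_at are high in both IMF groups, and those like Bt.21191.3.S1_at are highest in JB IMF.

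Genes of the pathways of myomegalin were measured in part. Among protein kinase A subunits and anchoring proteins 8 of 20 listed genes were tested, with 1 called higher and 1 lower in IMF and a median depot difference of −0.41. Over all genes 4.79% were called higher and 7.91% lower, and the median was −0.12. PRKACA, the catalytic subunit alpha of protein kinase A, rose by 0.60 ± 0.16 (SE, limma, Benjamini-Hochberg adjusted p = 0.0344) and AKAP8, a nuclear anchoring protein, fell by 0.83 ± 0.18 (adjusted p = 0.0114). Of 10 listed cAMP phosphodiesterases 2 were tested and 0 called. They were PDE4A (0.27 ± 0.31) and PDE8A (−0.24 ± 0.17), at limma adjusted p of 0.620 and 0.382.

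Among 29 listed genes of microtubule growth at the centrosome and the Golgi apparatus, 14 were tested, with 2 called higher and 0 lower in IMF, against the same 4.79% and 7.91% of all genes. The list's median was 0.33, against −0.12 over all genes. MAPRE2, a protein of the growing microtubule end, rose by 1.14 ± 0.23 (SE, limma, Benjamini-Hochberg adjusted p = 0.00917), and CLASP1, a stabilizer of microtubules, by 0.73 ± 0.16 (adjusted p = 0.0125). In SCF 0 genes of these 3 lists were called between the breeds, with medians of 0.12 for protein kinase A, 0.082 for the phosphodiesterases and 0.079 for the microtubule genes, where the median of all genes was 0.029.

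Of the 5 annotated genes on either side of PDE4DIP in the RefSeq annotation, SEC22B, a protein of vesicle traffic, was the one with tested probe sets. Its 2 probe sets had depot differences of −0.62 and −0.59 (limma, Benjamini-Hochberg adjusted p = 0.220 and 0.345). Their breed differences were 0.067 and 0.60 in IMF and 0.078 and 0.58 in SCF, and neither was called between the breeds in SCF (limma, Benjamini-Hochberg adjusted p = 1.00 for both).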

How the data were processed

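Biotin-labelled cRNA was hybridized to the Affymetrix bovine array, per the labels' protocols. GCOS 1.1.1 and Affymetrix Expression Console 1.1 are named in the submitters' processing notes. The way in which signals were summarized and scaled is not stated by these notes or the labels. The deposited values are linear intensity values of 24128 probe sets, 2303 of them 0.

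Here log2(signal + 16) was quantile normalized over the 12 arrays. The 112 control probe sets and the 30% of the others with the lowest mean were left out, leaving 16811. Group means were fitted with limma 3.58.1 in R 4.3.3 (8 residual and 4.05 prior degrees of freedom). Probe sets carried 1 symbol in 13292 cases, several in 86 and none in 10638, and symbols were updated through RefSeq (assembly ARS-UCD2.0). Genes of lists were read by their brightest probe set. Named were PDE4DIP, the 5 genes most correlated with each of its probe sets, and up to 4 called members of each pathway list or the 2 with the smallest p. Alternatives were no filter, 50% left out, median centring, the values as deposited, array weights, a trended and robust variance, a pseudocount of 1, only the compared groups, a replicate block and each sample left out. Leaving out HS IMF 3 with HS SCF 4, and JB SCF 6 with HS SCF 5, was chosen after seeing the data. Members and lists were chosen with earlier results of these data known. The fits were tested on simulated data. Figures were made in Python 3.11.15 with matplotlib 3.10.9.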

Additional observations from a re-analysis of the deposited data

How the results depend on the processing

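With 3 samples a group, and signals that were dim in SCF for every probe set but Bt.11530.1.A1_at, small differences could not be seen. The calls of Bt.3736.1.A1_at and Bt.21191.2.A1_at over both breeds and in JB kept their direction and their side of the threshold in every alternative run. In the values as deposited the breed difference in IMF of Bt.11530.1.A1_at was −0.49, the depot difference of Bt.21191.3.S1_at in HS was −0.11, and the within-sample shift of Bt.21191.1.A1_at minus Bt.21191.3.S1_at was −1.44 (adjusted exact p = 0.0529). With a pseudocount of 1 the breed difference in IMF of Bt.21191.1.A1_at was 1.09. Median centring gave 0.076 for its depot difference in HS. Array weights gave 0.035 for the breed difference of Bt.21191.2.A1_at in SCF. With only the HS groups in the fit its depot difference was 1.83, no longer called. Without HS IMF 3 and HS SCF 4 the depot difference of Bt.21191.3.S1_at in HS was −0.044 and the breed difference of Bt.21191.2.A1_at in SCF was 0.18. Without JB SCF 6 and HS SCF 5 the depot difference of Bt.11530.1.A1_at was −0.68 and that of Bt.21191.2.A1_at in HS 1.69, both no longer called, and Bt.21191.3.S1_at had −0.056 between the depots in HS and −0.012 between the breeds in SCF.

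With 1 sample left out at a time, the depot difference of Bt.11530.1.A1_at ran from −0.88 to −0.69 and was called in 7 of 12 fits. That of Bt.21191.1.A1_at ran from −0.21 to 0.096 over both breeds and from −0.35 to 0.26 in HS (11 fits each, since without JB SCF 5 it fell below the filter), that of Bt.21191.3.S1_at in HS from −0.077 to 0.070, and that of Bt.21191.2.A1_at in HS from 1.62 to 2.17, called in 11. Breed differences in SCF ran from −0.37 to 0.18 for Bt.21191.2.A1_at and from −0.019 to 0.23 for Bt.3736.1.A1_at. The within-sample shift ran from −2.58 to −1.60 for Bt.11530.1.A1_at minus Bt.21191.3.S1_at and from −1.74 to −1.07 for Bt.21191.1.A1_at minus Bt.21191.3.S1_at. In each of these cases the cause was not tested. The deviations of samples with the same number had correlations of −0.24 to 0.11. With 3 samples a group this cannot exclude that the numbers pair samples or mark shared handling. With the replicate number as a block the breed difference of Bt.21191.1.A1_at in SCF was 0.71. The calls between the breeds were then 1 in SCF, as without the block, and 2 in IMF, where there were 4 without it. The depots share no numbers, so no block was possible between them.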
